A study of Mus musculus with 5 samples.

Results

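Sfrp1 and Sfrp2 encode secreted frizzled-related proteins, soluble antagonists of Wnt signalling, and their RNA was followed through the growth of the mouse cerebellum. The members were chosen by gene symbol. Each has 1 probe with a single symbol in the table, so they are 2 of its 773 named genes, and 2 of the 787 probes with a single symbol among 897 probes in all. Total RNA of whole cerebellum was measured on arrays at E18 (embryonic day 18) and at P7, P14, P21 and P56 (postnatal days 7, 14, 21 and 56). Every group is mouse cerebellum without a stated treatment; the sources used here do not give strain, sex or genotype, or say whether the RNA came from separate or pooled animals. Each age has 1 column of values, which per the labels averages 2 array experiments, so there is no replicate error, no p-value and no test in what follows.

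A Wnt protein signals by binding a Frizzled receptor together with an Lrp coreceptor, which spares beta-catenin from destruction and lets it act with TCF/LEF factors on target genes. Secreted frizzled-related proteins carry a cysteine-rich domain like that of the Frizzled receptors and a netrin-like domain, and can bind Wnt proteins outside the cell before these reach a receptor. Sfrp1 is also known as an inhibitor of the protease Adam10, and Sfrp2 as a protein that can enhance the procollagen processing carried out by Bmp1. The young postnatal cerebellum grows mainly through division of granule cell progenitors in its outermost layer, under the control of Sonic hedgehog, and these cells then migrate inward and mature. This is background and was not measured here.

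Of both genes, the RefSeq promoter table of build GRCm38.p6 matched only Sfrp2, so its sequence alone is shown. The stretch runs from 250 bases before to 50 bases after the gene's start, at chr3:83766071-83766370 on the plus strand, and 66% of its bases are G or C. Capitals mark an octamer motif, ATTTGCAT, that begins 47 bases before the start.

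Sfrp2 promoter: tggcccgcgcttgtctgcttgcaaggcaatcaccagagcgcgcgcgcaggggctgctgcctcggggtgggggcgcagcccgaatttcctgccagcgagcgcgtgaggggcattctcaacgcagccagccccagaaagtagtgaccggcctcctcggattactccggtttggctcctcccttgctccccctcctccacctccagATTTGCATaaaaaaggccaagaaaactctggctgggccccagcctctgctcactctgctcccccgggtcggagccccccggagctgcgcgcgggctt

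Motif searches covered both strands of this window. The octamer was chosen after the sequence was seen; it matched 1 time, and 1.74% of the 32851 promoters of the same length in the table hold it on either strand. The TCF/LEF sequences CTTTGAT and CTTTGTT, the GC box GGGCGG and the TATA box TATAAA had 0 matches in the window. They occur in 3.73%, 5.85%, 35.7% and 13.6% of the promoters. These are matches of letters, and no binding was measured.

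The values were read as percents: in each experiment a probe's highest age counts as 100%, and the column holds the mean of the 2 experiments. A percent of Sfrp1 therefore compares with Sfrp1 at other ages and not with a percent of Sfrp2. The words rose and fell are kept for differences of 2-fold or more. Where a change is said to hold in both experiments, they mean a difference of any size in that direction. Fewer cells of a type and less RNA per cell cannot be told apart in whole tissue.

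Sfrp1 (gene ID 20377) stood at 34.65% at E18, 100% at P7, 25.33% at P14, 3.79% at P21 and 10.7% at P56. It was high at P7 alone, and its lowest value came at P21, below that of the adult. Sfrp2 (gene ID 20319) stood at 100% at E18, 33.74% at P7, 13.23% at P14, 9.31% at P21 and 8.30% at P56. It was highest before birth and lower at each later age, with most of the decline over by P14. The genes therefore had different highest ages, P7 for Sfrp1 and E18 for Sfrp2.

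**Figure D1:**
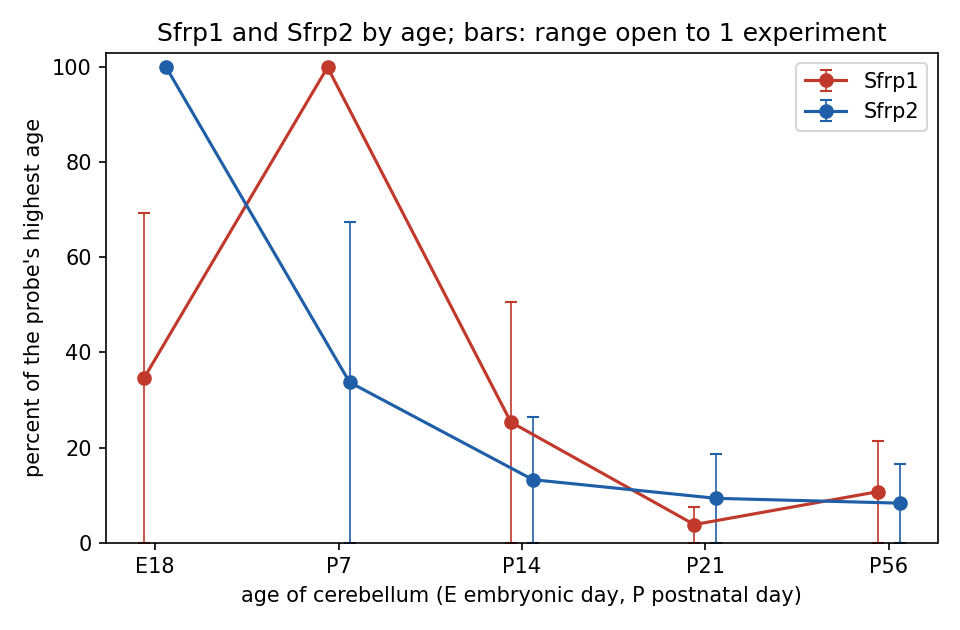
Percent of the level at the probe's highest age (vertical axis) for Sfrp1 and Sfrp2 at the 5 ages (horizontal axis); points are the deposited means and bars span the values that 1 of the 2 experiments could hold if both lie between 0% and 100%. Sfrp1 peaks at P7 and Sfrp2 at E18; the heights of the curves cannot be compared between the genes.

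A value of exactly 100% leaves room for no other reading than 100% in both experiments, if each was scaled to its own highest age. Under that reading every other age is bounded, since a mean of 34.65% cannot come from an experiment above 69.3%. Sfrp1 then rose from E18 to P7 in both experiments, by at least 1.44-fold in each, and fell from P7 to P14 in both, by at least 1.97-fold; by the same bounds 16.7% of all probes fell in both at the later step. Its level at P7 was at least 13.2-fold that at P21 and at least 4.67-fold that at P56 in each experiment. Sfrp2 fell from E18 to P7 in both experiments, by at least 1.48-fold in each, and its level at E18 was at least 3.78-fold that at P14, 5.37-fold that at P21 and 6.02-fold that at P56, where 43.0% of all probes fell in both experiments. These are 4 of the 10 pairs of ages for each gene. The order of the other 6 pairs rests on the means, so E18 and P14 of Sfrp1, at 34.65% and 25.33%, and P21 and P56 of either gene cannot be ordered in each experiment. For Sfrp1 9 of the 10 pairs differed by 2-fold or more, and for Sfrp2 7 of the 10 did. Pairs were not counted in this way over all probes, so these counts describe the members alone.

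From E18 to P7 the genes moved in opposite directions. Sfrp1 rose 2.89-fold (log2 difference 1.53) and Sfrp2 fell 2.96-fold (log2 difference -1.57). Over all 897 probes 52 rose (5.80%) and 25 fell (2.79%) at this step, and by the bounds above 12 rose (1.34%) and 18 fell (2.01%) in both experiments. Because the genes were picked with these values known, their presence among the few is a description. Sfrp1 had the 22nd largest rise. Of all probes, only that of Nefm, a neurofilament gene, fell by more than Sfrp2, from 100% to 30.82% (3.24-fold). The median probe differed by 0.05 (log2) between these 2 columns. The ratio of Sfrp1 to Sfrp2 was 8.55-fold higher at P7 than at E18, a figure that stays the same when each column is divided by a constant of its own, but not under quantile normalization.

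**Figure D2:**
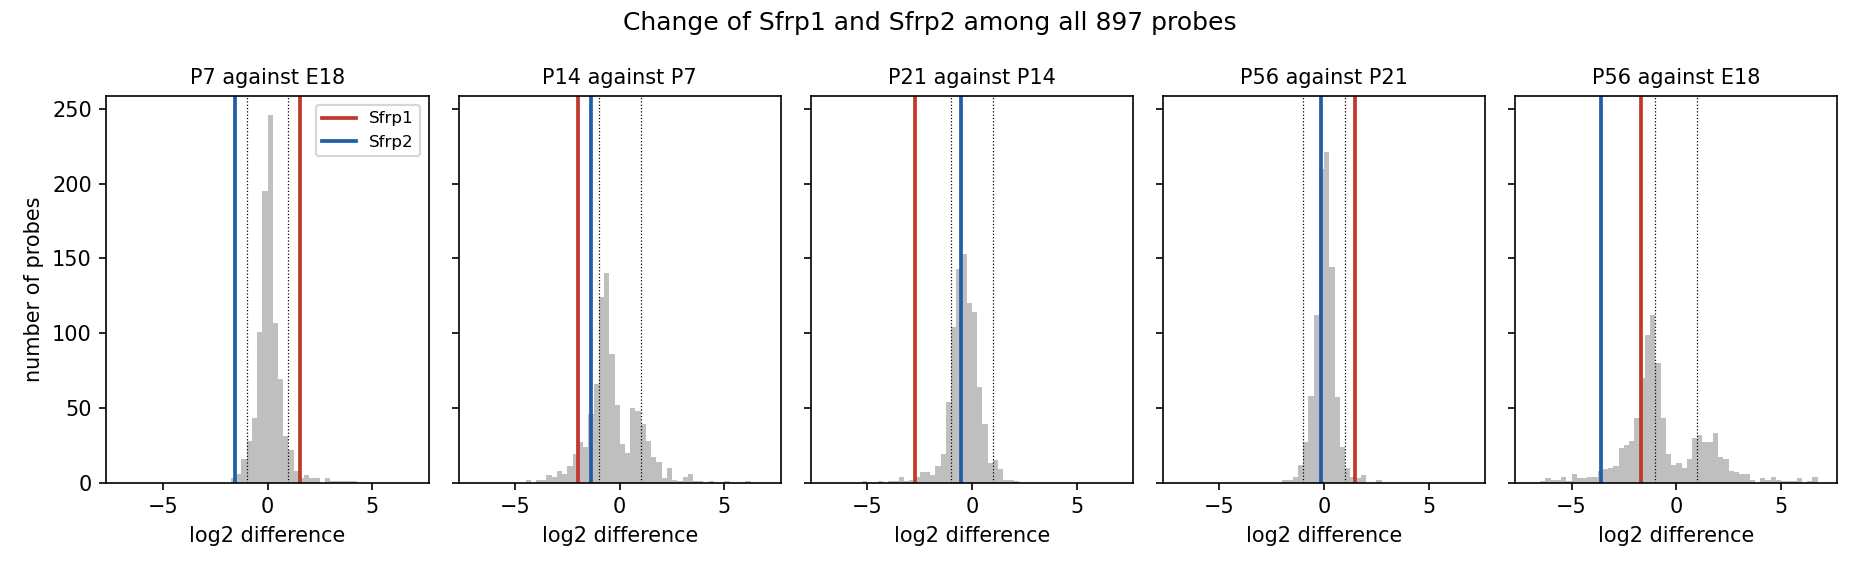
Number of probes (vertical axis) by log2 difference (horizontal axis) for each pair of ages, over all 897 probes, with lines for Sfrp1 and Sfrp2 and dotted lines at 2-fold. The members lie on opposite sides at P7 against E18 (1.53 and -1.57) and on the same side at P56 against E18.

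Both genes fell from P7 to P14. Sfrp1 fell 3.95-fold, from 100% to 25.33%, and Sfrp2 fell 2.55-fold, from 33.74% to 13.23%. At this step 222 probes fell (24.7%) and 129 rose (14.4%), and the median probe differed by -0.58 (log2). Relative to that median Sfrp1 was lower by a log2 difference of -1.40 and Sfrp2 by -0.77. With columns divided by their medians Sfrp2 differed by -0.78 (log2) and no longer passed 2-fold, while Sfrp1 differed by -1.41.

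Sfrp1 turned at P7 in a way few probes did. It rose 2-fold or more into P7 and fell 2-fold or more out of it, as did 4 of the 897 probes (0.446%). The other 3 were Ccnd2, the cyclin D2 gene, Slc29a1, a nucleoside transporter gene, and a probe without a symbol. Sfrp2 fell 2-fold or more at both steps, as did 8 of 897 probes (0.892%). The other 7 were Dpysl3, a gene of axon growth, Cdkn1c, an inhibitor gene of cyclin-dependent kinases, Sst, the somatostatin gene, Mfap2, a microfibril gene, Syt5, a synaptotagmin gene, and both probes of Ebf3, a transcription factor gene. These patterns were set after the values were seen.

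**Figure D3:**
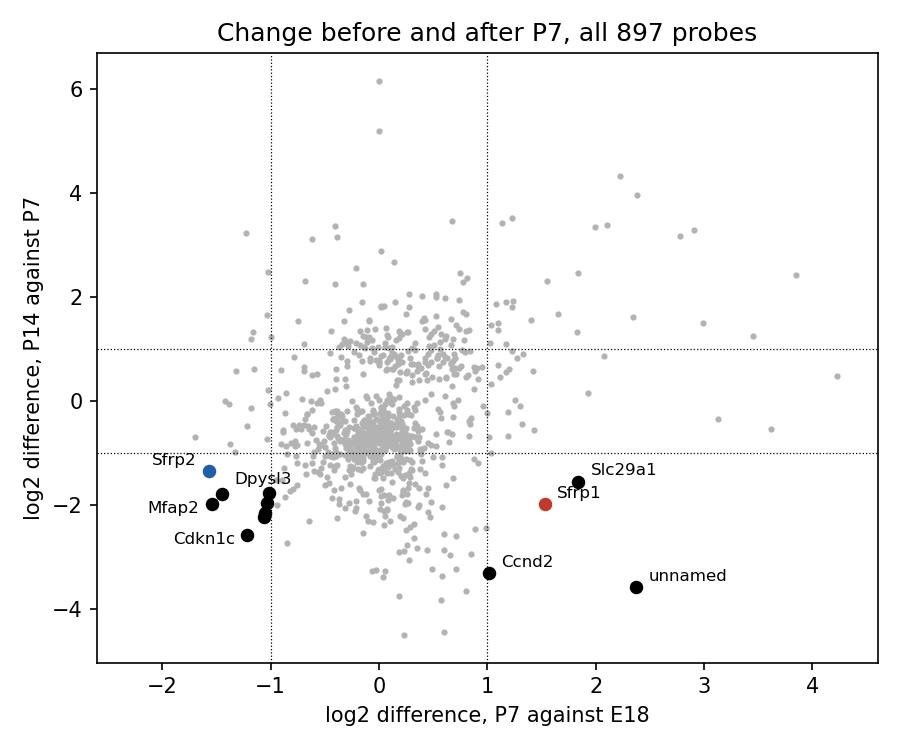
Log2 difference of P7 against E18 (horizontal axis) and of P14 against P7 (vertical axis) for all 897 probes, with dotted lines at 2-fold. Large points are the 4 probes that rose and then fell, Sfrp1 among them (1.53 and -1.98), and the 8 that fell at both steps, Sfrp2 among them (-1.57 and -1.35); some of the latter are left without a name to keep the labels apart.

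The genes also differed among probes with the same highest age. Of the 301 probes highest at P7, 4 had a lower percent at E18 than Sfrp1, against a median of 83.4%. Of the 313 probes highest at E18, 1 had a lower percent at P7 than Sfrp2, against a median of 81.9%. Most probes of either kind thus held a high level at both E18 and P7, and each member held it at 1 age.

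From P14 to P21 Sfrp1 fell again, 6.68-fold, from 25.33% to 3.79%, the 12th largest fall of any probe. Sfrp2 stood at 13.23% and 9.31%, a difference of -0.51 (log2) that did not pass 2-fold. At this step 118 probes fell (13.2%) and 29 rose (3.23%), with a median of -0.35 (log2). The Sfrp2 difference was 0.72 with quantile normalization, so its direction depends on the scale. By the bounds the Sfrp1 fall was not forced in both experiments, and a floor at the 10th percentile of all values, 20.4%, reduces it to -0.31 (log2).

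From P21 to P56 Sfrp1 rose 2.82-fold, from 3.79% to 10.7%, the 12th largest rise. Sfrp2 stood at 9.31% and 8.30%. At this step 24 probes rose (2.68%) and 20 fell (2.23%), with a median of 0.03 (log2). The Sfrp1 rise lies between values of 10.7% of its peak and less, it was not forced in both experiments, and it is 0 with the floor at the 10th percentile.

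Over the whole interval both genes ended lower. Sfrp2 at P56 was 12.0-fold lower than at E18 (log2 difference -3.59), and Sfrp1 was 3.24-fold lower (-1.70). In this comparison 471 probes fell (52.5%) and 203 rose (22.6%), and the median probe differed by -1.07 (log2), so a fall is the common outcome in the table. Sfrp2 was lower by -2.52 (log2) relative to that median and Sfrp1 by -0.62. With columns divided by their medians Sfrp1 differed by -0.69 and with quantile normalization by -0.92, neither past 2-fold. For Sfrp2 the smallest difference over these scalings was -2.58. The end points alone hide the peak of Sfrp1 at P7.

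Genes with the most similar profiles were found by the root mean square difference of the percents over the 5 ages, among the other 772 named genes. Nearest to Sfrp1 was Slc29a1, at 5.30 percentage points, with 28.02% at E18, 100% at P7, 34.23% at P14, 7.38% at P21 and 8.63% at P56. Next came Ccnd2 at 10.8 points and Mcm10, a DNA replication gene, at 10.9. Lpl, the lipoprotein lipase gene, was at 12.2 points, Cdc45, another replication gene, at 12.9, and Mki67, a marker gene of dividing cells, at 13.3. Pdgfra, a receptor gene of oligodendrocyte progenitors, and Igfbpl1 were at 14.3 and 14.4 points. All 8 were highest at P7, and 7 of them, all but Slc29a1, stood between 49.5% and 63.5% at E18, above Sfrp1 at 34.65%. With E18 left out 1 of the 8 stayed among the nearest, Slc29a1, so the likeness depends on the level before birth.

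Nearest to Sfrp2 was Mfap2, at 2.18 percentage points, with 100% at E18, 34.33% at P7, 8.68% at P14, 8.02% at P21 and 9.33% at P56. Dpysl3 was at 3.37 points, Cdkn1c at 5.13 and Sox4, a transcription factor gene of immature neurons, at 5.50. Sst was at 6.68 points, Ebf3 at 6.77, Syt5 at 7.13 and Mest, an imprinted gene, at 8.37. All 8 stood at 100% at E18 and between 34.33% and 51.62% at P7. Sfrp1 was 42.1 points from Sfrp2, the 417th nearest gene to it.

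**Figure D4:**
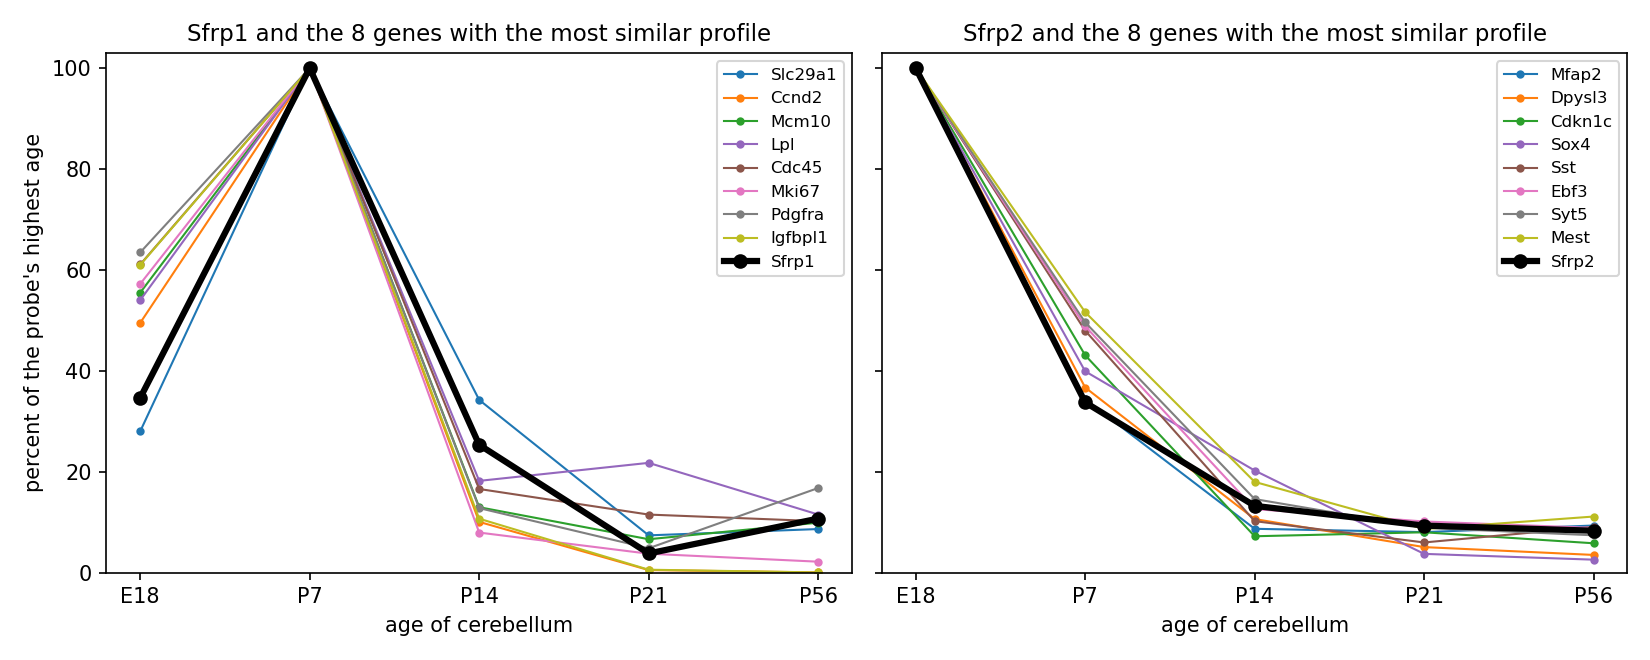
Percent of the probe's highest age (vertical axis) by age (horizontal axis) for Sfrp1 (left, black) and Sfrp2 (right, black) with the 8 genes of most similar profile in colour. Around Sfrp1 only Slc29a1 shares the low value at E18; around Sfrp2 the lines lie close together at all ages.

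Likeness over 5 points is loose, and the measure decides which genes are named. By Pearson's correlation of log2 values over the same 5 ages, 0 of the 8 genes stayed among the 8 nearest to Sfrp1 and 1 of 8, Ebf3, among those nearest to Sfrp2. Slc29a1 had a correlation of 0.96 with Sfrp1 by that measure, and Mfap2 one of 0.98 with Sfrp2. The points share their columns, and no p-value is given.

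The rest of the pathway is thinly covered. Of the listed symbols, 0 of 27 for Wnt ligands, their secretion and R-spondins and 0 of 20 for receptors matched a named probe, so the members cannot be set beside the proteins they bind. The lists of antagonists, transduction, the calcium branch and targets gave 12 genes beside Sfrp1 and Sfrp2, and 8 more came from a list of matrix and heparan sulfate genes. From E18 to P7 3 of these 20 genes rose, Ccnd2, Bmp1 and Hs3st1, and 1 fell, Mfap2, against 5.80% and 2.79% of all probes. From P7 to P14 3 rose and 9 fell, against 14.4% and 24.7% of all probes. At P56 against E18 4 of the 20 rose and 12 fell, shares near those of all probes (22.6% and 52.5%); their median difference was -1.49 (log2), against -1.07 for all named genes.

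Among antagonists, Igfbp4, which encodes an IGF-binding protein that can also block Wnt receptors, stood at 92.63% at E18, 92.58% at P7, 43.42% at P14, 32.2% at P21 and 20.81% at P56. It held its level from E18 to P7, where Sfrp1 and Sfrp2 went opposite ways, and fell 2.13-fold from P7 to P14. At P56 against E18 all 3 measured antagonists fell, where 52.5% of all probes did; Sfrp1 no longer passed 2-fold with columns divided by their medians (-0.69) or quantile normalization (-0.92).

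Of 3 genes of signal transduction, all were highest at E18, against 313 of all 897 probes. From E18 to P7 0 of the 3 passed 2-fold, where 5.80% of all probes rose and 2.79% fell. Tle1, a corepressor gene of TCF/LEF factors, went from 100% at E18 to 77.46% at P7 and 19.54% at P14, a fall of 3.96-fold at the later step. Csnk1e, which encodes a kinase acting on Dishevelled, went from 100% at E18 to 24.98% at P21 and 28.97% at P56. Apc2, an Apc relative that binds beta-catenin, went from 96.95% to 50.93% between E18 and P56.

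The 2 measured genes of the calcium branch rose from E18 to P56, where 22.6% of all probes did. Camk2b, a calmodulin-dependent kinase gene, stood at 29.6% at E18, 30.89% at P7 and 100% at P56, and Ppp3ca, which encodes the catalytic subunit of calcineurin, at 33.63%, 50.59% and 92.08%. Mature neurons use both proteins at synapses, so the list's name is not their only role.

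Of 6 measured genes listed as Wnt targets, 1 rose from E18 to P7, where 5.80% of all probes did. This was Ccnd2, from 49.51% to 100%, and it shared the direction of Sfrp1 at this step. From P7 to P14 4 of the 6 fell, against 24.7% of all probes. Ccnd2 fell to 10.05% and Mycn, a Myc family gene of granule cell progenitors, went from 89.5% to 17.87%. En1, a homeobox gene of the midbrain and hindbrain, went from 83.14% to 27.49%. The 2 probes of Ccnd1, the cyclin D1 gene, averaged 80.85% at P7 and 24.9% at P14. Sox2 stood at 89.12% and 52.84%, and Neurod1, a transcription factor gene of granule neurons, at 94.22% and 96.08%. Several of these genes have other regulators, Hedgehog signalling among them, and their values do not measure Wnt activity.

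Among matrix genes, Bmp1, the procollagen protease gene, rose over the steps from E18 to P14 at which Sfrp2 fell. Its 2 probes averaged 12.7% at E18, 30.4% at P7, 88.2% at P14, 84.0% at P21 and 59.1% at P56. Hs3st1, a heparan sulfate sulfotransferase gene, rose from 3.22% at E18 to 7.56% at P7 and 86.58% at P14. Vcan, the versican gene, stood at 65.81% at E18, 100% at P7, 17.02% at P14, 4.93% at P21 and 2.63% at P56, highest at the same age as Sfrp1. Tnc, the tenascin C gene, fell 10.1-fold from E18 to P56. Gpc1, a glypican gene, went from 97.7% at E18 to 43.01% at P56, and Unc5c, a netrin receptor gene, from 90.67% to 44.34%. Bcan, the brevican gene, stayed between 52.87% and 81.64%.

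**Figure D5:**
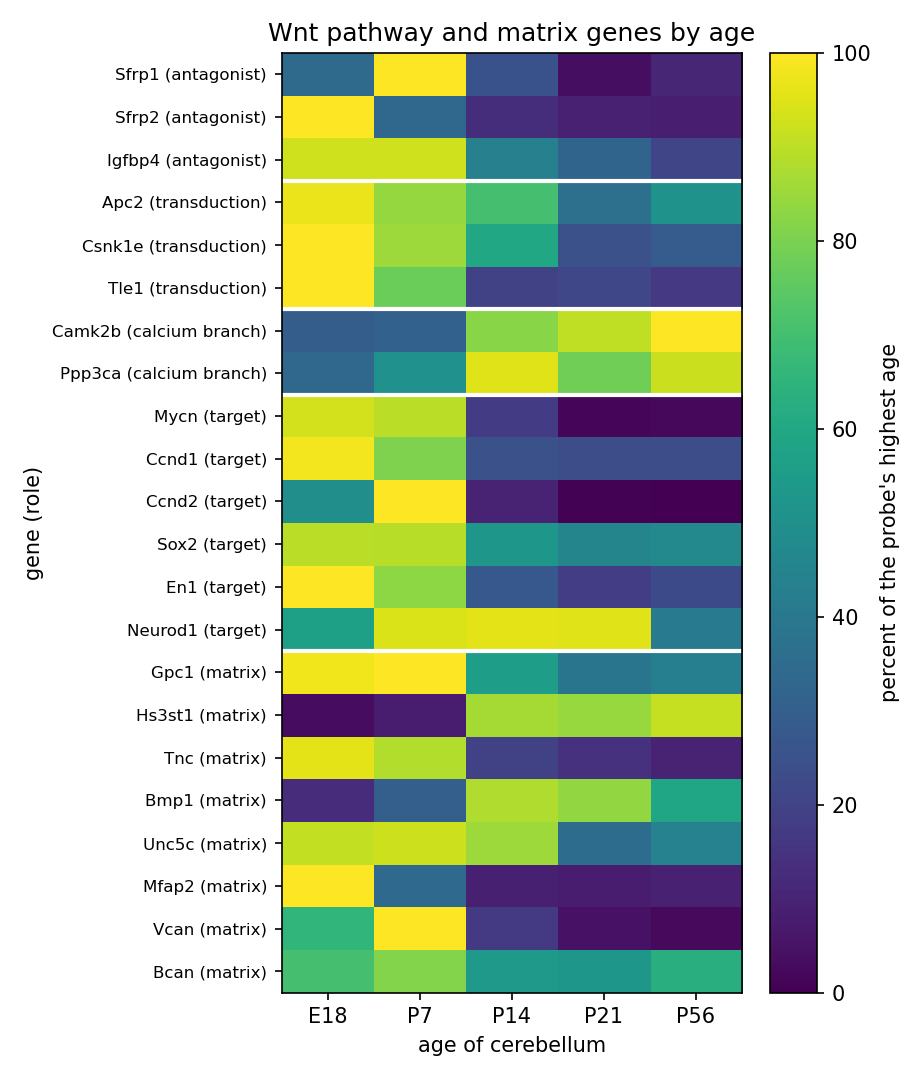
Percent of the probe's highest age (colour) at each age (horizontal axis) for the measured Wnt pathway and matrix genes (vertical axis), grouped by role; Ccnd1 and Bmp1 are means of 2 probes. Sfrp1 and Sfrp2 are bright at 1 age each, P7 and E18, and colours compare ages of a gene, not genes.

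Markers of the cells that the tissue could hold moved over the same ages, and their part in the Sfrp1 and Sfrp2 values was not tested. The 8 measured of 16 genes for granule cell progenitors averaged 78.9% at E18, 92.0% at P7, 28.4% at P14, 15.2% at P21 and 14.4% at P56. Of these 8 genes 4 were highest at P7, as Sfrp1 was, and the other 4 at E18, as Sfrp2 was. Over all 897 probes 301 were highest at P7 and 313 at E18. From E18 to P7 1 of the 8 genes rose, Ccnd2, against 5.80% of all probes. The 7 measured of 18 genes for radial and Bergmann glia averaged 71.4%, 90.5%, 46.5%, 32.7% and 32.6% over the same ages. Of these, Gfap and Aqp4, both of astrocytes, rose from E18 to P7. The other 5, Sox2, Id1, Id3, Tnc and Notch1, were highest at E18. The median of the 7 genes was 94.76% at E18 and 89.12% at P7, so the higher mean at P7 comes from Gfap and Aqp4. The 13 measured of 24 genes for meninges and vessels averaged 95.2% at E18, 71.1% at P7, 32.8% at P14, 27.6% at P21 and 27.2% at P56. Of these 13 genes 11 were highest at E18, as Sfrp2 was, against 313 of all 897 probes. From E18 to P7 1 of the 13 genes fell, Mfap2, against 2.79% of all probes. The median difference of the 13 genes at that step was -0.42 (log2), against -1.57 for Sfrp2. Ttr and Igfbp2, the 2 measured of 7 choroid plexus genes, averaged 100% at E18, 63.8% at P7, 20.1% at P14, 20.3% at P21 and 45.3% at P56. From P21 to P56 Ttr rose from 20.43% to 62.91%, and Igfbp2 went from 20.24% to 27.65%. At this step Sfrp1 rose from 3.79% to 10.7%, while Sfrp2 stood at 9.31% and 8.30%. Igfbp2 is also among the 13 genes for meninges and vessels. No measured marker of these 4 groups was under 1% of its own highest age at E18 or P7, which does not give its absolute level.

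The tissue label was set against markers of cerebellar neurons. Of 8 listed Purkinje cell genes 3 were measured, Pcp2, Calb1 and Pvalb, and all 3 rose from E18 to P56, where 22.6% of all probes did. Of 9 listed genes of mature granule neurons 6 were measured and 5 rose, with Gabra6 going from 0.72% to 99.82%. The gene that did not rise, Neurod1, went from 56.74% to 40.64%. A percent of a probe's own highest age shows the course of these markers, not their absolute level.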

How the data were processed

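The deposited values of 5 columns and 897 probes were read as percent; per the labels each column is the authors' mean of 2 array experiments. The scaling is read from the values: all lie between 0.01 and 100, and 420 probes stand at exactly 100 at 1 age and 0 at more. The sources used here do not give the scanner, background correction, normalization or choice of probes. Depth does not apply; the number of arrays limits the precision. Symbols are those of a platform annotation that may be out of date, with 1 symbol for 787 probes, several for 16 and none for 94. By gene ID 784 of the 787 matched a RefSeq table of GRCm38.p6, with the same symbol.

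Values under 1% (20 in all, in no member) were set to 1% before log2 was taken. With 1 column per age no test was made; 2-fold was the threshold. The design had foreseen percents with this floor. For lists, 2 probes of a gene were averaged as log2 values for the differences and as percents for the percents given. Named were the members, the measured pathway and matrix genes, the 8 nearest profiles of each member, and larger falls from E18 to P7; genes that share a member's turn at P7, and the markers given with values, were added after values were seen. The members and lists were chosen with earlier results of these data known. Alternatives were column medians, quantile normalization, floors at the 10th and 25th percentiles, a pseudocount of 1, thresholds of 1.5-fold and 3-fold, probes at or above 1% throughout, another likeness measure and each age left out. The bounds per experiment, the ratio of the members and the octamer search were added after the values or sequence were seen. The calls and bounds were tested on simulated data. The simulated experiments were scaled and averaged by the rule assumed here, so they cannot check the scaling read from the values. Python 3.11.15, numpy 2.4.6 and pandas 2.3.3 were used.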

Additional observations from a re-analysis of the deposited data

How the results depend on the processing

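The opposite moves of Sfrp1 and Sfrp2 from E18 to P7 kept their direction and stayed past 2-fold under each alternative for scale, floor and pseudocount, at 1.48 to 1.65 (log2) for Sfrp1 and -1.91 to -1.48 for Sfrp2; at a 3-fold threshold neither 1.53 nor -1.57 passed. The falls of Sfrp1 from P7 to P14 and of Sfrp2 from E18 to P56 passed 2-fold under each scaling, floor and pseudocount. Without these alternatives they passed 3-fold too, at -1.98 and -3.59 (log2). The floor at the 25th percentile set both of these falls to -1.48, short of 3-fold. With columns divided by their medians the Sfrp1 fall was -1.41, also short of 3-fold. The other changes past 2-fold did not stay so under each scaling and floor. For P56 against E18, Sfrp1 gave -0.69 after division by column medians, -0.92 with quantile normalization, -0.77 with the floor at the 10th percentile and 0 with that at the 25th. For P21 against P14 Sfrp1 gave -0.31 and 0 with these floors, and for P56 against P21 it gave 0 with either, and its 1.497 did not pass 3-fold. For P14 against P7 Sfrp2 gave -0.78 with columns divided by their medians, -0.73 and 0 with the floors, and its -1.35 did not pass 3-fold. Floors take out low values by construction. Of the 8 genes most like Sfrp1, 0 stayed with Pearson's correlation and 1 with E18 left out; of those most like Sfrp2, 1 stayed with Pearson's correlation. The other 11 comparisons of these lists kept 6 to 8 genes. The cause of these shifts was not tested.

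Counts over all probes moved more. Dividing columns by their medians shifts the median probe by 0.58 (log2) at P14 against P7, 0.39 at P21 against P14 and 1.01 at P56 against E18; it gave 238 probes higher and 105 lower, 61 and 51, and, at P56 against E18, 147 lower. Quantile normalization gave 59 lower at P7 against E18, 224 higher at P14 against P7, 57 higher and 40 lower at P21 against P14, and 206 lower at P56 against E18. The floors at the 10th and 25th percentiles gave 24 and 13 higher at P7 against E18, 63 and 31 lower at P21 against P14, and 13 and 7 higher and 10 and 4 lower at P56 against P21. At 1.5-fold the counts higher and lower were 129 and 81, 213 and 447, 63 and 311, and 82 and 78 for the steps in order; at 3-fold they were 20 and 1, 53 and 104, 4 and 38, and 9 and 4, and 135 and 234 at P56 against E18. Of the 20 pathway and matrix genes, the count that rose from E18 to P7 was 1 with either floor, 6 at 1.5-fold and 0 at 3-fold, where 0 fell; 1 rose from P7 to P14 at 3-fold. From P14 to P21 1 rose with quantile normalization and 3 fell with either scaling or at 3-fold, 2 and 1 with the floors; from P21 to P56 4 fell at 1.5-fold and 0 at 3-fold. No paired analysis was possible because each age has 1 column.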
